A study of Mus musculus with 56 samples.

Results

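Deposited H2A.Z peaks of mouse embryonic stem cells were read here at 52 genes of the Wnt pathway, of 26216 genes with curated RefSeq transcripts. The genes comprised 19 Wnt ligands, 12 receptors (Fzd1 to Fzd10, Lrp5 and Lrp6), 7 secreted modulators (Rspo1 to Rspo4, Sfrp1, Sfrp2 and Sfrp5), 4 TCF/LEF transcription factors (Lef1, Tcf7, Tcf7l1 and Tcf7l2) and 10 feedback regulators or targets (Axin1, Axin2, Dkk1, Nkd1, Nkd2, Sp5, Lgr5, Cdx1, Cdx2 and Cdx4). Axin1 was placed in the last group, although it is a core scaffold of the pathway and not a feedback gene. The list is one of names and roles and uses no measured value, but it was chosen with earlier results of these data known. A changed peak belonged to a gene when the authors' annotation named that gene, and every other peak went to the gene with the nearest start. In this way 256 of the 61420 H2A.Z peaks fell to these genes.

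Wnt proteins are secreted lipid-modified ligands that bind Frizzled receptors together with the co-receptors Lrp5 or Lrp6. Binding stops a cytoplasmic complex built on Axin and the kinase GSK3 from marking beta-catenin for destruction, and beta-catenin then joins TCF/LEF factors at target genes, several of which encode inhibitors that feed back on the pathway. In naive embryonic stem cells the pathway is held active by inhibiting GSK3, which acts downstream of ligands and receptors, and this helps to maintain self-renewal.

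The cells were of the RHKI(E14Tg2a) line, which derives from E14Tg2a embryonic stem cells and carries an HA-Rnaseh1 knock-in, by the label of every library. The study's design text also names cells called ZX-1, which no library label gives. RNase H1 cuts the RNA of RNA:DNA hybrids, the core of R-loops, and the study asked what happens to chromatin, among others to the histone variant H2A.Z, when it is induced. Both groups carried the knock-in and grew in NDiff 227 medium with LIF, 2% FBS, 3 µM of the GSK3 inhibitor CHIR-99021 and 1 µM of the MEK inhibitor PD0325901. The control group had 4 H2A.Z CUT&Tag libraries, and the doxycycline group had 4, made after 48 hours with the drug at 500 ng/ml. In CUT&Tag an antibody recruits a transposase, which cuts and tags the DNA beside the protein of interest. The other 48 of 56 libraries, on 9 further targets, are not analysed here. One knock-in line stands for the treatment, and no group given doxycycline without the knock-in was used, so an effect of doxycycline itself and an effect of RNase H1 cannot be told apart. The induction of RNase H1 was not measured here, nor were R-loops or RNA.

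The files held peak positions on GRCm38 and 2 lists of changed peaks, but neither sizes of change nor p-values, and nothing measured in single libraries. Lower and higher are read from the names of the lists as doxycycline against control. Depth and replicate spread are therefore unknown. A peak in neither list is one that the authors did not list, which does not show that its H2A.Z stayed the same.

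Most of the 52 genes held a peak with lower H2A.Z. Of the 52 genes, 50 had a peak, and 35 of these (70.0%) had at least 1 lower peak. Over all protein-coding genes with a peak the share was 37.8%. The 2 genes without a peak were Wnt8a and Axin1. The 256 peaks comprised 58 lower peaks, 22.7% (95% exact Clopper-Pearson interval 17.7 to 28.3%, which covers counting only), against 14.8% of all peaks. Of the 256, 0 were higher, where 0.518% of all peaks were, a share at which few or none would be found among 256. A single lower peak was found at 21 genes and more than 1 at 14 genes, 28% of those with a peak, against 8.95% of protein-coding genes with a peak.

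Genes of this pathway also had many peaks, with a median of 3.5 per gene against 2 over protein-coding genes with a peak. The number of peaks was therefore taken into account by splitting the genes. Among genes with 1 to 4 peaks, 20 of 29 pathway genes (69.0%) had a lower peak, against 35% of protein-coding genes with as many. Among genes with 5 or more, it was 15 of 21 (71.4%), against 48.5%. Both shares lay above the background of their own class.

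The role groups differed in these counts. At least 1 lower peak was found at 15 of 19 ligands, 8 of 12 receptors, 5 of 7 secreted modulators, 4 of 4 TCF/LEF factors and 3 of 10 feedback regulators or targets. For the 9 feedback regulators or targets with a peak the share was 33.3%, near the 37.8% of protein-coding genes with a peak. As a share of peaks, 32 of 83 ligand peaks were lower, 38.6% (28.1 to 49.9%). It was 11 of 55 receptor peaks, 20.0% (10.4 to 33%), and 7 of 32 modulator peaks, 21.9% (9.28 to 40.0%). It was 5 of 45 TCF/LEF peaks, 11.1% (3.71 to 24.1%), and 3 of 41 peaks of feedback regulators or targets, 7.32% (1.54 to 19.9%). The intervals of the ligands and of the feedback regulators or targets did not overlap. The share of all peaks, 14.8%, lay within every interval except that of the ligands. Peaks of 1 gene share their locus and are not independent, so these intervals are too narrow. Without Sp5, which has 16 peaks, the last share became 3 of 25, 12% (2.55 to 31.2%), and its interval overlapped that of the ligands. Without Wnt7b the ligand share was 26 of 76, 34.2% (23.7 to 46.0%).

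**Figure D1:**
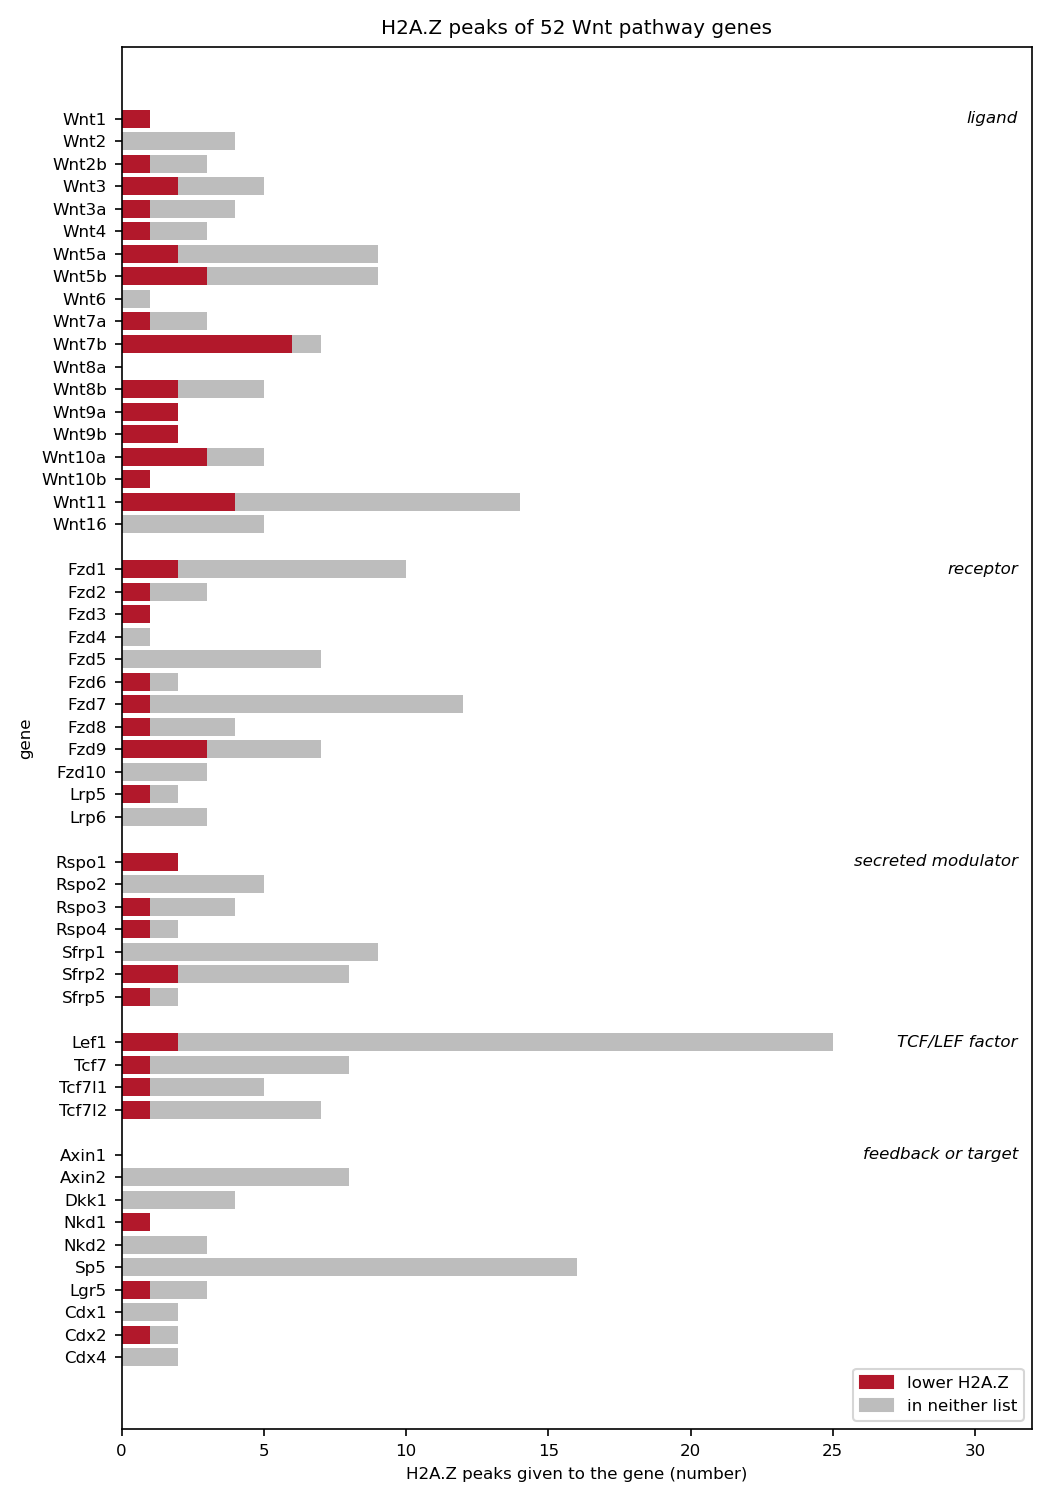
Number of H2A.Z peaks given to each of the 52 genes (horizontal axis), grouped by role, with peaks of lower H2A.Z in red and peaks in neither list in grey. Red is present at 15 of 19 ligands and at 3 of 10 feedback regulators or targets, while Lef1 and Sp5 have the longest grey bars of their groups.

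Where the lower peaks lay relative to the gene start also differed by role. A peak counted as a start peak when its centre lay within 1 kb of a start, and 32 of the 52 genes had one. It was lower at 19 of the 32 (59.4%), against 32.3% of protein-coding genes with a start peak. By role it was lower at 7 of 11 ligands, 6 of 8 receptors, 4 of 5 modulators, 0 of 2 TCF/LEF factors and 2 of 6 feedback regulators or targets. Ligands, receptors and modulators together had 17 of 24. TCF/LEF factors and feedback regulators or targets, which include the secreted Dkk1 and the receptor Lgr5, had 2 of 8. Counting any peak that overlaps 1 kb around a start brought these closer, to 19 of 31 and 4 of 9, with Lef1 and Tcf7 then among the lower. Within 3 kb they were 22 of 33 and 5 of 12. By peak centre Fzd4 is left out, because the peak over its start, in neither list, went to another gene. The count by overlap includes Fzd4.

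Farther from the start, ligand peaks were lower more often than the background share in both classes of distance, while most other roles were near or under it, apart from the TCF/LEF factors between 1 and 10 kb. Within 1 kb, 31.6% of the peaks of protein-coding genes were lower. Between 1 and 10 kb the background was 16.4%, and 9 of 21 ligand peaks (42.9%) were lower there, against 1 of 14 receptor peaks, 1 of 7 modulator peaks, 3 of 5 TCF/LEF peaks and 1 of 7 peaks of feedback regulators or targets. Over 10 kb away the background was 10.6%, and 16 of 51 ligand peaks (31.4%) were lower, against 4 of 33 receptor peaks (12.1%), 2 of 20 modulator peaks, 2 of 38 TCF/LEF peaks and 0 of 28 peaks of feedback regulators or targets. A count of 0 of 28 allows a share of up to 10.7%, which includes the background. That limit is 3 divided by 28 and not the exact interval used above. Wnt7b supplied 5 of the 16 far ligand peaks, and without it the share was 11 of 46 (23.9%).

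**Figure D2:**
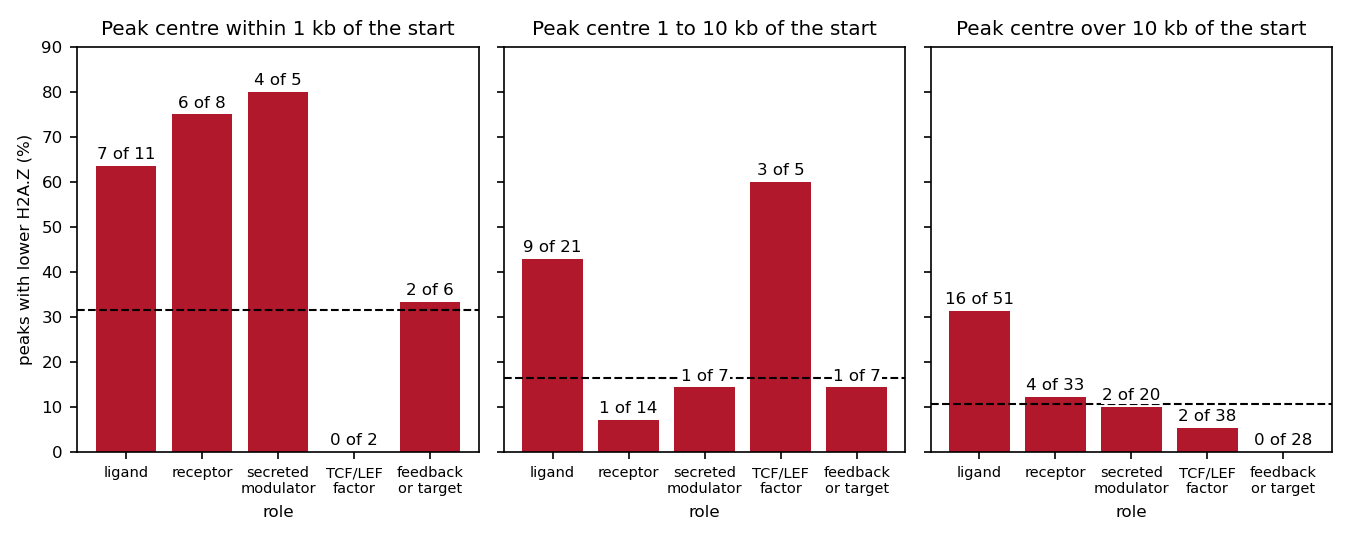
Share of peaks with lower H2A.Z (vertical axis, percent) by role for 3 classes of distance between peak centre and gene start, with counts above the bars and the share over all protein-coding genes as a dashed line (31.6, 16.4 and 10.6%). Ligand bars exceed the line in all 3 panels, whereas the bars of feedback regulators or targets are near it, below it or at 0.

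Most of the start peaks reach into the promoter. RefSeq promoter windows of 300 bases, from 250 before to 50 after a start on GRCm38.p6, were matched for 36 of the 52 genes (44 windows), and each start peak at these windows overlapped its window except the one at the internal Tcf7l2 start. The following 6 were chosen as examples of both calls. Sp5 and Dkk1 are feedback genes whose start peak is in neither list, while Fzd7, Wnt11, Wnt3a and Sfrp5 have a lower start peak. Capitals mark each CTTTGAT or CTTTGTT, 2 spellings of the TCF/LEF motif, on either strand, so that a match on the other strand reads ATCAAAG or AACAAAG.
Sp5, chr2:70474673-70474972, plus strand: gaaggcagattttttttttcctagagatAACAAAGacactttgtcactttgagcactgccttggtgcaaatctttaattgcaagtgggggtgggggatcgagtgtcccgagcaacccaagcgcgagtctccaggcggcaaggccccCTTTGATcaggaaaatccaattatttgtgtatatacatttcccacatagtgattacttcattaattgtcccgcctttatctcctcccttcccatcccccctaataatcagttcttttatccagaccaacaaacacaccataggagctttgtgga
Dkk1, chr19:30549447-30549746, minus strand: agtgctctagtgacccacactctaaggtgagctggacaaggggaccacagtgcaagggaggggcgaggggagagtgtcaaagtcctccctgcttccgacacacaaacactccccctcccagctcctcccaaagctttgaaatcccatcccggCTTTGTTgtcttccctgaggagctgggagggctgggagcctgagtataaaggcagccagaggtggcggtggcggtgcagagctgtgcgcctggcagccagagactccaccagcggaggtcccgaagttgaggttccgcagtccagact
Fzd7, chr1:59481897-59482196, plus strand: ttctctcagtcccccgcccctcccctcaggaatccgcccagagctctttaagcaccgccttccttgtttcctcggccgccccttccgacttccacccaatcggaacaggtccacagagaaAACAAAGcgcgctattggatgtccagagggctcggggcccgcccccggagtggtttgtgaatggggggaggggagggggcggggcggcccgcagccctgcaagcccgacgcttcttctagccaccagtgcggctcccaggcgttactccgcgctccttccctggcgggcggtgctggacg
Wnt11, chr7:98834862-98835161, plus strand: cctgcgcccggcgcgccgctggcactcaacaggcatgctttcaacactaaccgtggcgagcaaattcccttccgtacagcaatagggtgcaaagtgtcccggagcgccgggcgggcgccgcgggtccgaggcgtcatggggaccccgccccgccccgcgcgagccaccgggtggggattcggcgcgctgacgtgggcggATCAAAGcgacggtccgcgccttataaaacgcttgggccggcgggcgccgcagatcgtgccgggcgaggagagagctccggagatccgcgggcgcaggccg
Wnt3a, chr11:59290702-59291001, minus strand: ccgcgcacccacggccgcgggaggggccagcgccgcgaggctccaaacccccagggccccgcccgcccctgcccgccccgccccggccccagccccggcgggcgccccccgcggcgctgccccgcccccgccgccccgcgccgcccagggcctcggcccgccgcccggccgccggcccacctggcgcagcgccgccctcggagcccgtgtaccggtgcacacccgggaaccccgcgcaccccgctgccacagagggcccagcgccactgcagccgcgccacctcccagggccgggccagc
Sfrp5, chr19:42202203-42202502, minus strand: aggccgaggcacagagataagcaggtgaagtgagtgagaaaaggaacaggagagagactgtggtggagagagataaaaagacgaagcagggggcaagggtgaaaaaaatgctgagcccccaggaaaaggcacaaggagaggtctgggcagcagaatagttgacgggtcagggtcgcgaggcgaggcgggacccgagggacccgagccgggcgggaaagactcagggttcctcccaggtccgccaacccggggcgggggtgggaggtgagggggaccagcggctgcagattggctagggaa

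The Sp5 window carried 2 matches, CTTTGTT on the other strand 222 bases before the start and CTTTGAT on the sense strand 104 bases before it. Dkk1 carried CTTTGTT 98 bases before its start. Fzd7 carried CTTTGTT on the other strand 130 bases before its start, and Wnt11 carried CTTTGAT on the other strand 51 bases before its start. Wnt3a and Sfrp5 had no match in these windows, which says only that these letters are not there. Of the 44 windows 7 had a match (15.9%), against 1637 of 20487 windows of protein-coding genes (7.99%). The others were at Wnt3 and at internal starts of Wnt5b and Tcf7l2, while the window at the outermost Wnt5b start, with the lower peak, had no match. The Axin2 window had none. No matches overlapped, and a match is a description of the letters and not of a bound site.

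Windows with a lower start peak had the higher median GC content, by a margin that depended on how peaks and windows were matched. The median GC content was 71.5% in the 12 windows of these genes with a lower start peak, 61.8% in the 12 with a start peak in neither list and 66.0% in the 20 with no peak centred there. Windows were classed by any peak centred there, so the Fzd4 window counts as in neither list although its peak went to another gene. Over all protein-coding genes the same medians were 64.3%, 59.3% and 51.3%, so the order of the first 2 was shared with genes at large. The ratio of observed to expected CpG, which is near 1 where CpG has not been lost, had a median of 0.844 in windows with a lower start peak and 0.639 in windows with one in neither list. Over all protein-coding genes these medians were 0.738 and 0.720. With windows grouped instead by the peak that overlaps them, wherever its centre lies, the 22 windows under a lower peak had a median GC content of 68.2% and the 14 under a peak in neither list had 64.3%. The ratios were then 0.786 and 0.744. That grouping adds windows of Lef1 (down to 51.7%), Fzd1 (54.0%) and Cdx2 (57.3%) to the lower class. Of the printed windows with a lower start peak, Wnt3a had a GC content of 86.3%, Wnt11 71.3%, Fzd7 66.7% and Sfrp5 61.3%. Sp5 had 45.0% and Dkk1 60.7%. The ranges overlapped, at 61.3 to 86.3% with a lower start peak and 42.0 to 84.3% with one in neither list.

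GC skew, the excess of G over C on the sense strand divided by their sum, is of interest because R-loops are known to form where the RNA is rich in G. Its median was 0.04 in windows with a lower start peak and 0.05 in those with one in neither list. In the 200 bases before the start alone the order was the reverse, 0.07 against 0.0010, so no order of these medians held in both windows. The range among the former was wide, from -0.26 at Wnt3a to 0.38 at Sfrp5. Their promoters differ in strand composition although both start peaks were lower. No R-loop signal was measured here, so the part of R-loops in these calls was not tested.

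**Figure D3:**
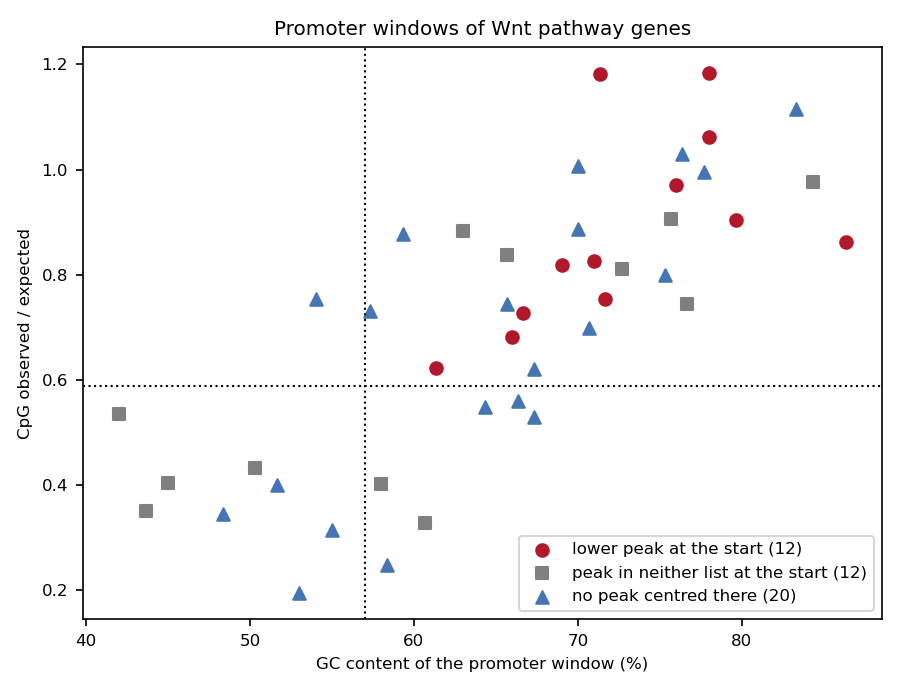
GC content (horizontal axis, percent) and the ratio of observed to expected CpG (vertical axis) of 44 promoter windows, marked by the call of the peak centred within 1 kb of that start, with dotted lines at the medians of all protein-coding windows. The 12 windows with a lower start peak centred there all lie above 61% GC, while those with a start peak in neither list reach down to 42.0%, at an internal Tcf7l2 start whose window the peak does not overlap.

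Among the ligands, Wnt7b, which acts in lung and vascular development, had the most lower peaks, 6 of 7. Its promoter peak was 4117 bp wide and centred 669 bp upstream of a start that lies within the annotated gene, at chr15:85576681-85580797. The other 5 lay upstream of the gene, with centres 24.2, 29.3, 33.6, 44.4 and 53.0 kb from its outermost start, and were 641 to 1379 bp wide. They form a row of separate peaks, all lower, with 1 peak in neither list between them and the gene. The authors' annotation placed the farthest of them on a CpG island and the others in intergenic sequence or an old SINE repeat.

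Wnt11, a ligand that mainly signals without beta-catenin in cell movements, had 4 lower peaks of 14. Its start peak, chr7:98831859-98839300, spanned -3253 to 4188 bp from the start and was the widest lower peak of any gene described here, at 7442 bp. A second lower peak of 1794 bp lay within the gene, in an intron, and lower peaks of 501 and 1034 bp lay 50.4 kb upstream and 28.4 kb downstream of a start. Broad peaks of 7921, 5978 and 5124 bp around the gene were in neither list. Broad peaks at this locus thus had both calls.

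Wnt5b, also a ligand of signalling without beta-catenin, had 3 lower peaks of 9: one of 1772 bp at its outermost start, one of 1642 bp centred 21.7 kb upstream, and one of 501 bp in an exon. A peak of 5425 bp over an internal start was in neither list. Its relative Wnt5a had 2 lower peaks of 9, of 913 and 501 bp, both in exons in the later part of the gene. The peak nearest to the Wnt5a start, centred 1250 bp away, was in neither list.

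Several ligand genes are neighbours, and the peaks around these pairs were counted together. Of all peaks inside or within 10 kb of a protein-coding gene, 19.5% were lower. Wnt6 and Wnt10a lie 6.70 kb apart on chromosome 1, and from 10 kb before to 10 kb beyond the pair 4 of 7 peaks were lower, one of them at the start of Prkag3. The widest of them, 4525 bp at chr1:74780305-74784829, lies in the third exon of Wnt6 although the annotation gives it to Wnt10a, and the peak at the Wnt6 start (1357 bp) was in neither list. Wnt10a had 3 lower peaks of 5, the other two, of 1299 and 3388 bp, in its introns. By the authors' annotation Wnt6 therefore has no lower peak, but its gene body does.

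Wnt3a and Wnt9a, 16.1 kb apart on chromosome 11, had 5 lower peaks of 9 in the same kind of window, of which 2 were given to Arf1. The Wnt3a start peak was lower, 1527 bp wide at chr11:59289378-59290904, and Wnt3a is a standard activating ligand of the beta-catenin branch. Wnt9a had 2 peaks, both lower: one of 3849 bp reaching from -919 to 2929 bp and one of 4135 bp in its last intron. The Wnt9a start peak was centred 1005 bp from the start and so fell just outside the window for start peaks. Wnt9b and Wnt3, whose annotated spans overlap on that chromosome, had 4 lower peaks of 7. Wnt9b, a ligand of kidney tubule formation, had a lower start peak of 875 bp and a lower peak of 1147 bp in the 3′ UTR. Wnt3, which is needed for formation of the primitive streak, had lower peaks of 922 and 2467 bp in its gene body, 21.2 and 36.2 kb from the start, while the 3375 bp peak that covers its start was in neither list.

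Wnt10b and Wnt1, 11.7 kb apart on chromosome 15, had 3 peaks in the window, all lower. Wnt10b had a single peak of 6894 bp, at chr15:98772006-98778899, that covered nearly the whole gene from -749 to 6144 bp. Wnt1, known for its role in the midbrain, had a single peak of 1918 bp inside the gene. The third peak of that window was given to Arf3.

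Of the other ligands, Wnt2b had a lower start peak of 1570 bp, and Wnt7a, which patterns the limb, had one of 2160 bp. Wnt8b had 2 lower peaks of 5, of 752 bp upstream and 1281 bp in its last exon. Wnt4, a ligand of kidney and gonad development, had a start peak of 2080 bp in neither list and a lower peak of 630 bp 11.4 kb upstream. The ligands without a lower peak were Wnt2 (4 peaks, its start peak 2991 bp), Wnt6 (1), Wnt16 (5, its start peak 1907 bp) and Wnt8a, which had no peak.

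**Figure D4:**
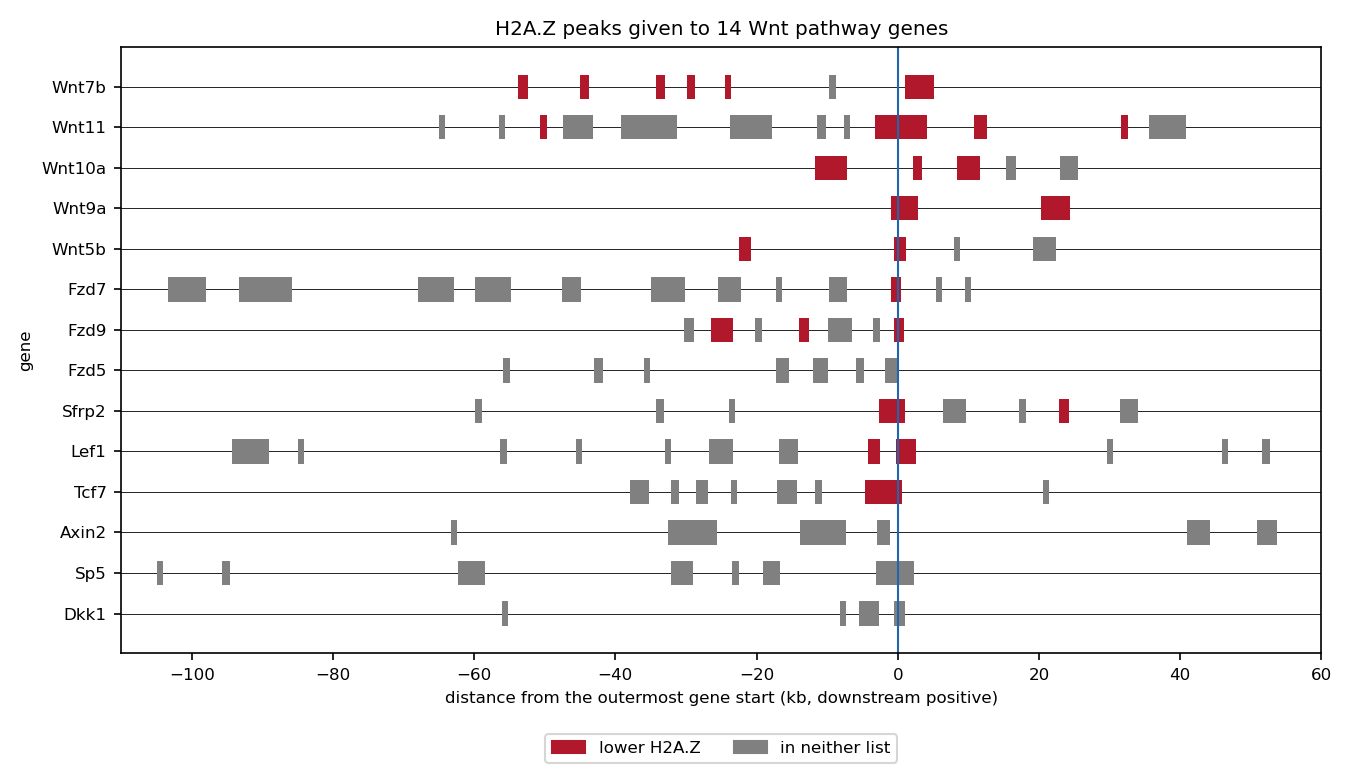
Peaks given to 14 genes, placed by distance from the outermost gene start (horizontal axis, kb, downstream positive), in red where H2A.Z was lower and in grey where the peak is in neither list, with the narrowest peaks drawn 0.9 kb wide and peaks beyond the axis left out. Wnt7b shows a row of red peaks upstream, Fzd7 and Lef1 a single red peak or pair at the start among grey ones, and Axin2, Sp5 and Dkk1 no red.

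Of the 11 lower peaks of the receptor genes, 6 were centred within 1 kb of a start, 1 lay 1 to 10 kb away and 4 lay farther. Lower peaks of protein-coding genes also often lay at starts, with 3281 within 1 kb, 1542 from 1 to 10 kb and 3094 farther. Frizzled proteins are the membrane receptors that bind Wnts directly, and Fzd2, Fzd3, Fzd7, Fzd8 and Fzd9 had lower start peaks of 2288, 890, 1436, 4066 and 1465 bp. Lrp5, a co-receptor, had one of 3432 bp centred 813 bp upstream. Fzd1 had one of 3239 bp centred 1015 bp downstream, just outside the window for start peaks, although it spanned -604 to 2634 bp. Fzd1, Fzd2, Fzd8 and Fzd9 have a single exon in the transcripts used by the annotation, and the centres of their lower peaks lie in it.

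Fzd9 had the most lower peaks of the receptors, 3 of 7, with further ones of 1377 and 3064 bp centred 13.3 and 24.8 kb upstream. Fzd7, the Frizzled often described in pluripotent cells, had 1 lower peak of 12. Its other peaks, most of them upstream and up to 7491 bp wide, were in neither list. Fzd6 showed the opposite layout, with a start peak of 501 bp in neither list and a lower peak of 627 bp 15.6 kb upstream. The second lower peak given to Fzd1 lies 186 kb away on an L1Md_T element, a young LINE repeat, within Cdk14, so its link to Fzd1 is one of nearest start only. Fzd4 (1 peak), Fzd5 (7), Fzd10 (3) and Lrp6 (3) had no lower peak. A peak in neither list spanned -1408 to 1133 bp from the Fzd4 start but went to another gene, so Fzd4 is not among the receptors with a start peak. The Fzd5 start peak of 1816 bp ended 5 bp before the start.

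**Figure D5:**
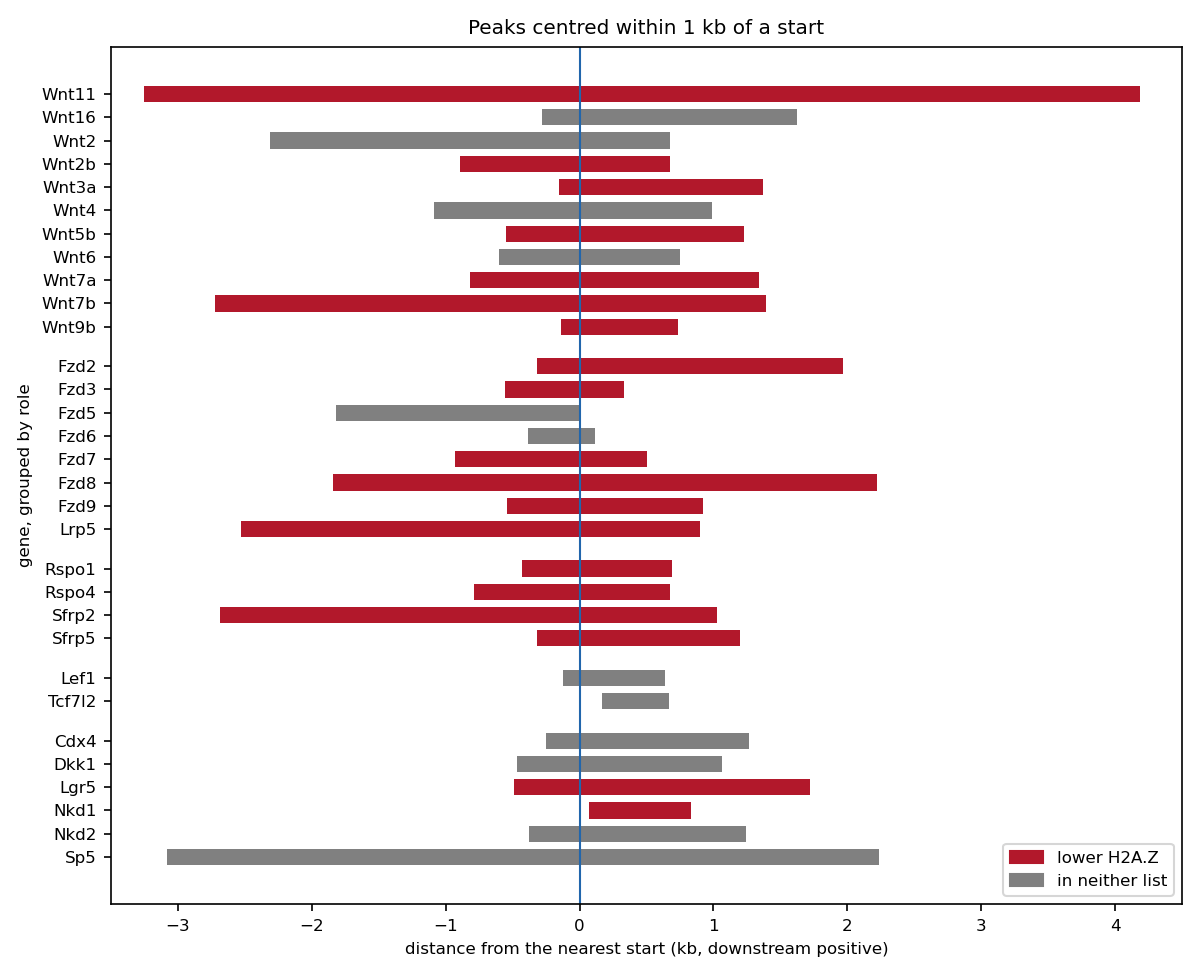
Extent of each peak centred within 1 kb of a start, by distance from that start (horizontal axis, kb, downstream positive), for 31 genes grouped by role, in red where H2A.Z was lower and in grey where the peak is in neither list; Sfrp1, whose peak is in neither list, is left out because the strand of its gene was not known. Among ligands, receptors and modulators 17 bars are red, and among TCF/LEF factors and feedback regulators or targets 2 are.

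The secreted modulators had lower peaks at start sites as well. R-spondins raise Wnt signalling by sparing Frizzled receptors from degradation. Rspo1 had 2 peaks, both lower, of 1115 bp at the start and 901 bp in the first intron, and Rspo4 had a lower start peak of 1465 bp. Rspo3 had a lower peak only at an L1Md_T element 238 kb from its start, and its peak nearest to the start, 3674 bp wide, was in neither list. The 5 peaks of Rspo2 were all in neither list.

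Secreted Frizzled-related proteins bind Wnts and mostly restrain them. Sfrp2 had 2 lower peaks of 8, of 3714 bp at the start and 1446 bp on a CpG island 23.6 kb downstream. Sfrp5 had a lower start peak of 1519 bp, at chr19:42201054-42202572, that reaches over the printed promoter. All 9 peaks of Sfrp1 were in neither list, including one of 2786 bp at a gene end. Among modulators both enhancers and inhibitors of the pathway therefore had lower start peaks.

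Each TCF/LEF factor had a lower peak, but few of their many peaks were lower. Lef1, mostly an activator together with beta-catenin and itself a Wnt target, had 2 lower peaks of 25. One of 2825 bp spanned -242 to 2582 bp from its outermost start, at chr3:131110055-131112879, and one of 1780 bp lay 3333 bp upstream. A peak of 761 bp at an internal Lef1 start, and all others up to 187 kb upstream, were in neither list. Tcf7, also mainly an activator, had 1 lower peak of 8, which was 5223 bp wide and spanned -4634 to 588 bp.

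Tcf7l1, the main repressor of Wnt targets in embryonic stem cells, had 1 lower peak of 5, of 1363 bp and 36.3 kb upstream. Tcf7l2 had 1 of 7, of 1515 bp and 103 kb from the nearest start, outside the gene. The lower peaks of Lef1 and Tcf7 thus covered a start although their centres lay over 1 kb from it, and those of Tcf7l1 and Tcf7l2 were distal. Counted within 3 kb of a gene start or end, 2 of the 4 factors had a lower peak.

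Most feedback regulators and targets had peaks but no lower one, as did most protein-coding genes with a peak. Of the 9 with a peak 33.3% had a lower one, against 37.8% of protein-coding genes. At the start it was 2 of 6 (33.3%), against 32.3%. Axin2, the scaffold of the destruction complex and a widely used readout of beta-catenin activity, had 8 peaks, all in neither list, among them broad ones of 6975 and 6395 bp upstream of its start. Sp5, a zinc finger factor induced by Wnt, had 16 peaks, all in neither list. The one over its start was 5323 bp wide, from -3082 to 2240 bp. Most of the 16 lay within Myo3b, 60.4 to 213 kb upstream, so their link to Sp5 is one of nearest start only. Dkk1, a secreted inhibitor that binds Lrp5 and Lrp6, had 4 peaks in neither list, one of 1535 bp at its start. Nkd2, which binds Dishevelled, had 3, and the homeobox genes Cdx1 and Cdx4 had 2 each, again in neither list.

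The exceptions were Cdx2, Lgr5 and Nkd1. Cdx2, a homeobox factor of trophectoderm and gut, had 1 lower peak of 2, of 3207 bp at chr5:147304310-147307516, which spanned -267 to 2939 bp. Lgr5, a receptor for R-spondins and a stem cell marker, had a lower start peak of 2208 bp and 2 peaks in neither list. Nkd1, a relative of Nkd2, had a single peak, of 760 bp, which was lower and centred 451 bp from a start in the authors' annotation. The RefSeq promoter windows hold no Nkd1 start within 1 kb of it, and by nearest start this peak would go to Gm35162. With Lgr5 counted among the receptors instead, 9 of 13 receptors and 2 of 9 feedback regulators or targets had a lower peak.

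Some lower peaks beside these genes carry another gene's name in the annotation. At Cdx1 a lower peak of 1273 bp lies within 10 kb of the gene at the start of Slc6a7. At Cdx2 one of 1009 bp within 10 kb was given to Urad. Inside Lrp5 a lower peak of 834 bp was given to Ppp6r3, and inside Wnt3a one of 933 bp was given to Arf1. With peaks counted when they lay inside a gene or within 10 kb of it, whatever their given gene, 49 of 158 peaks (31.0%) were lower, against 22.7% by the assignment used above and 19.5% around protein-coding genes at large. For feedback regulators or targets it was then 5 of 27 (18.5%), against 7.32%, and for ligands 28 of 62 (45.2%).

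The extent of lower peaks was also compared. The 58 lower peaks had a median width of 1465 bp (501 to 7442 bp), against 1034 bp for all 9077 lower peaks, and the 198 in neither list had a median of 1074 bp. Of the 16 peaks of 5 kb or more at these genes, 3 were lower, those of Wnt11, Wnt10b and Tcf7, where 153 of 2032 peaks of that width in the whole set were (7.53%). The other 13 included those at Axin2, Sp5 and Fzd7. The median distance from the start was 4.90 kb for lower peaks and 29.4 kb for peaks in neither list, and for all lower peaks of the set it was 5.57 kb, close to the former. A lower peak lay within 10 kb of the start at 29 genes, and at 6 genes every lower peak lay farther away.

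By the authors' annotation 19 of the 58 lower peaks were intergenic, 17 intronic and 11 exonic, and 7 were in the promoter class. The promoter class held 12.1% of them, against 18.9% of all lower peaks. The exon class held 19.0%, against 15.9%. In the detailed annotation a CpG island was named for 6 of the 58, all of them counted above as intronic or intergenic, against 7.92% of all lower peaks. L1Md elements held 2 of the 58, those given to Fzd1 and Rspo3, against 10.6% of all lower peaks, so that few of the lower peaks at these genes lay on young LINE repeats.

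Another 50 genes of the pathway, grouped by role, served for comparison. A peak was present at 46 and a lower one at 23 (50%), against 37.8% of protein-coding genes with a peak. Of their 194 peaks 28 were lower (14.4%), near the share of all peaks (14.8%). A lower start peak was present at 13 of the 36 genes with a start peak (36.1%), near the share of protein-coding genes (32.3%). Among signal transducers and members of the destruction complex, which include Gsk3b and the Dishevelled genes, 0 of 7 start peaks were lower. Among nuclear cofactors of beta-catenin and TCF it was 5 of 6 genes, among them Bcl9, a bridge between beta-catenin and Pygopus (902 bp). Among secretion factors and co-receptors it was 3 of 6, with Kremen2, a receptor for Dickkopf proteins (2155 bp), and Ror2, a receptor for Wnt5a (1668 bp). Among inhibitors it was 2 of 10, Frzb (2627 bp) and Dkk3 (2153 bp). Among planar polarity genes it was 3 of 7, Celsr2 (3146 bp), Celsr1 (2652 bp) and Vangl1 (1060 bp), which act in the orientation of cells within a sheet. None of the 194 peaks of these 50 genes was higher, where 0.518% of all peaks were.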

How the data were processed

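The data are H2A.Z CUT&Tag peaks from 4 control and 4 doxycycline libraries, grouped by their labels. The genome build was GRCm38 and the tools named are deepTools, HOMER, Picard, Bowtie2 and Trimmomatic, per the submitters' processing notes. The changed peaks were annotated with HOMER annotatePeaks, per the file headers. How peaks were called and tested, at which threshold and on pooled or single libraries, is not given in the sources used here. The peak score that the authors deposited is 0 for every listed peak and was not used. No value per library is in the files used, so no test over samples was made, and every number is a count, share, width or distance of peaks.

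All 9077 lower and 318 higher peaks are among the 61420 peaks. Changed peaks kept the gene and distance of the authors' annotation. The other peaks went to the nearest gene start, taken from a RefSeq promoter table (GRCm38.p6) for 36 of the 52 genes, from the authors' distances for 10 and, with no strand known, from both gene ends for 6 (Wnt8a, Lrp6, Rspo2, Sfrp1, Axin1 and Cdx1). This rule gives the authors' gene for 92.5% of the changed peaks and for 56 of the 58 lower peaks described here. It gave each of 2000 simulated peaks its nearest start, which checks the code only and not the assignment of real peaks. Where a start came from the authors' distances, agreement with the authors' gene was in part built in. Only genes with a changed peak could take a start from those distances, and the 6 genes with both ends used had no lower peak. The source of a start therefore depended in part on the call. Start peaks have their centre within 1 kb of a start.

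The genes, roles and lists were chosen with earlier results of these data known. Described in full are the 3 genes of each role with most lower peaks, every lower start peak, the widest lower peak of each role, and Axin2, Lef1, Tcf7, Sp5, Cdx1, Cdx2, Cdx4 and Tcf7l1. Of the other pathway genes, up to 8 with the widest lower start peaks are named, and Gsk3b was added after its values were seen. The software was pandas 2.3.3, numpy 2.4.6, matplotlib 3.10.9 and SciPy 1.17.1 under Python 3.11.15. Alternatives covered assignment, window, peaks of the minimum width (501 bp), the role of Lgr5, the promoter window and leaving out 1 gene.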

Additional observations from a re-analysis of the deposited data

How the results depend on the processing

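Of 64 values recomputed under alternatives, 62 stayed within 1.5 times of the reported count, or within the counting interval or spread of the reported value. The other two were the TCF/LEF factors with a lower peak, of which 2 of 4 had one within 3 kb of a gene start or end, and the share of lower peaks when peaks inside a gene or within 10 kb of it were counted, which was 31.0%. Genes with a lower peak numbered 34 by nearest start, which loses Nkd1, 28 within 3 kb, of which 27 were among the 35, 32 within 10 kb, of which 30 were, and 35 without peaks of the minimum width. The lower share of start peaks was 59.1% within 500 bp, 60% within 3 kb and 57.5% by any overlap with 1 kb around a start, the last against 31.0% of protein-coding genes. With all peaks assigned by nearest start it was 17 of 30 (56.7%). Without Sp5 the share of feedback regulators or targets rose from 7.32% to 12%, and with peaks inside a gene or within 10 kb it was 18.5%, both within its wide interval. Counting overlap with 1 kb around a start, 61.3% of ligands, receptors and modulators and 44.4% of the remaining genes had a lower start peak, against 70.8% and 25% by peak centre. Median GC skew in the 200 bases before the start was 0.07 with a lower start peak and 0.0010 with one in neither list, the reverse of the order in the whole window. Assigning all peaks by nearest start, counting genes with 1 to 4 peaks, leaving out single genes, pooling roles at the start and grouping promoter windows by overlap were chosen after seeing the data. No paired analysis was possible because the files used hold no value per library, and no replicate could be left out for the same reason. Depth, size of change and replicate spread are unknown, so a peak in neither list may still differ between the groups.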
